A study of Mus musculus with 8 samples.

Results

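The primary cilium and ciliary transport genes described here are 46 genes whose products build, gate, or carry cargo through the primary cilium, picked by name among the 21828 genes with an FPKM (fragments per kilobase of transcript, scaled to the mapped fragments of the library) in the deposited tables. All 46 symbols were found, each in 1 row, and 45 had a mean FPKM of at least 1 over the 8 libraries; the exception was Kif17. A primary cilium grows from a basal body, and its contents are set by a transition zone at its base, which acts as a gate. Intraflagellar transport (IFT) trains, pulled outward by kinesin-2 and back by dynein-2, carry building material, and the BBSome, a coat-like complex named for Bardet-Biedl syndrome, moves membrane proteins along with them. In rod and cone photoreceptors the outer segment is a modified primary cilium, joined to the cell body by a connecting cilium that corresponds to the transition zone, and inherited defects in many of these genes cause loss of photoreceptors.

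RNA from developing retinas of slc:ICR mice was sequenced in 8 libraries, 1 for each condition. Whole retina was taken at embryonic days 15 and 18 (E15 and E18). At postnatal days 2, 5, and 8 (P2, P5, and P8) dissociated retinal cells were stained for the surface enzyme Cd73 and sorted into Cd73 positive cells (Cd73PC), which hold the rods from an early postmitotic step on, and Cd73 negative cells (Cd73NC). No genotype or treatment was varied. Retinas were pooled for each sort, Cd73NC is a mixture of progenitors, glia, and other neurons whose makeup changes with age, and the step from E18 to P2 also changes whole retina to sorted cells, which cannot be told apart from age. With no replicates, no difference was tested, and no standard deviation can be given. A gene is called higher or lower where FPKM + 1 differed by more than 1.5-fold between 2 libraries. The study also used 1.5-fold but does not describe adding 1 to FPKM. Log2 ratios below are on the FPKM + 1 scale, which understates the differences of genes with low FPKM. In bulk samples such as these, fewer cells of a type and less RNA per cell cannot be told apart.

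Nt5e, the gene for Cd73 itself, had 2.43, 31.4, and 9.38 FPKM in Cd73NC and 97.3, 131, and 124 in Cd73PC, in the order P2, P5, and P8. That order of stages is kept below wherever 3 values of a fraction follow each other. The 8 rod markers examined (Nrl, Nr2e3, Gnat1, and others) were called higher in Cd73PC at each stage, and their summed FPKM in Cd73NC came to 2.02%, 13.0%, and 7.31% of the Cd73PC sum. Of 10 progenitor and cell cycle markers, 10, 9, and 9 were called lower in Cd73PC at P2, P5, and P8, as were 5, 7, and 8 of 8 Müller glia and astrocyte markers. Retinal ganglion cell markers summed to 974.5 FPKM at E15 and 609 at E18 and to at most 21.7 in any sorted fraction. At P2, 6 of 6 microglia markers (summed FPKM 7.70 in Cd73NC and 43.4 in Cd73PC) and 5 of 8 retinal pigment epithelium markers (2.17 and 66.7) were higher in Cd73PC, and at P8 the bipolar (1579 and 243) and erythroid (5526 and 2170) sums were higher in Cd73NC. The bipolar sum lay the other way at P2 (19.5 in Cd73NC and 97.8 in Cd73PC), where 5 of 10 bipolar markers were called higher in Cd73PC and 1 lower. The summed FPKM of 9 markers of cones, the other ciliated photoreceptors, was 97.9, 295, and 514.6 in Cd73NC and 357.5, 359, and 413.6 in Cd73PC. Of these 9 cone markers, 4, 1, and 3 were called higher in Cd73PC by stage and 0, 1, and 1 lower. A single gene, Gnb3, made up 388 of the Cd73NC sum and 255 of the Cd73PC sum at P8. The part of any of these cell types in the differences below was not tested. Depth relative to E18, read from the spacing of low FPKM values, ranged from 0.966 at E15 to 1.61 in Cd73PC at P2; the absolute depth is unknown.

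The cilium genes were mostly higher in the Cd73PC fraction. At P2, 22 of 46 were called higher in Cd73PC and 1 lower, where 8.56% of all genes (13.9% of genes with a mean FPKM of at least 1) were called higher and 14.4% (24.2%) lower. At P5 the counts were 26 higher and 1 lower, against 7.02% (11.6%) and 15.6% (26.3%) of genes. At P8 they were 31 higher and 1 lower, against 7.54% (12.4%) and 18.6% (29.8%). The median log2 ratio of Cd73PC over Cd73NC over the 46 genes was 0.50, 0.76, and 1.28 by stage, and the median over genes with a mean FPKM of at least 1 was -0.14, -0.18, and -0.22. Setting that median to 0 gave 24, 31, and 33 cilium genes higher and 1 lower at each of P2, P5, and P8. For each of the called genes the confidence bounds that the quantification software gave for the 2 libraries also did not overlap, though 48 of the 368 FPKM values of the cilium genes, in 8 genes, lie above the upper bound of their own row.

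Of the 46 genes, 21 were higher in Cd73PC at all 3 stages, as were 765 of all genes, or 3.50%, and 738 of the genes with a mean FPKM of at least 1, or 5.97%. Tulp3 was lower at all 3. B9d2 was higher at P2 and P8 but within 1.5-fold at P5, with its P8 ratio just past the threshold. Ift80, Tctn2, B9d1, and Arl3 were higher from P5, and Ift57, Ift74, Ift88, Ift172, and Tmem67 at P8 only of the stages compared. Mks1 was higher at P5 alone. The other 13 stayed within 1.5-fold at each stage: Bbs10, Ift20, Ift46, Ift52, Ift140, Kif3a, Kif17, Rpgr, Rpgrip1l, Iqcb1, Ahi1, Sdccag8, and Rp2h. The ratio of Cd73PC over Cd73NC was higher at P8 than at P2 in 32 of the 46 genes, by more than 1.5-fold in 13, and lower by more than 1.5-fold in 8. In 5 of these 8 (Unc119, Rpgrip1, Mak, Bbs4, and Ift20) the fractions came closer, whereas Tulp3 moved further below Cd73NC. Ift46 passed from just above Cd73NC to just below it, within 1.5-fold at both stages. Kif17, the last of the 8, had at most 0.449 FPKM in any library, too little for a difference to be read. Irrespective of direction, the log2 ratio was further from 0 at P8 than at P2 in 35 genes.

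**Figure D1:**
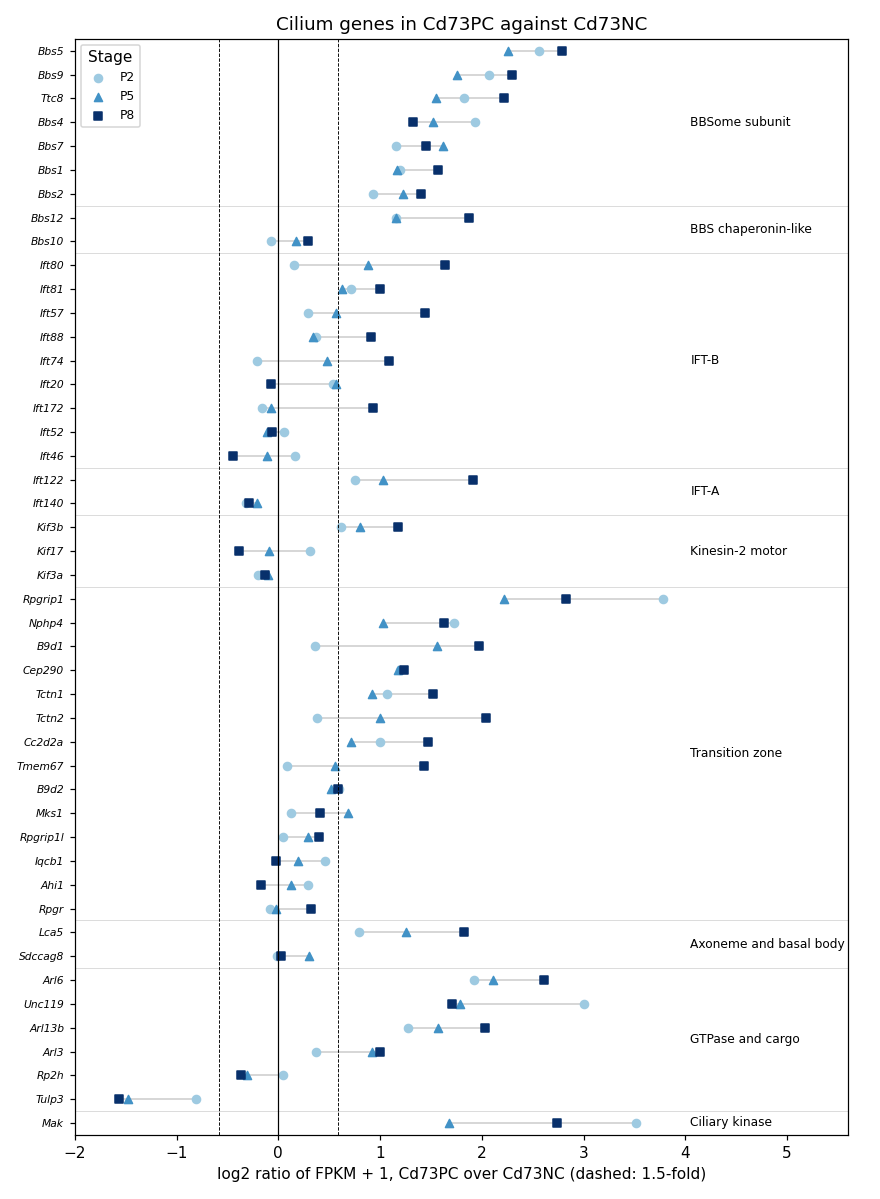
Log2 ratio of FPKM + 1 in Cd73PC over Cd73NC (horizontal axis) for each of the 46 genes, grouped by role, at P2 (circles), P5 (triangles), and P8 (squares), 1 library per fraction and stage; dashed lines mark 1.5-fold. The BBSome subunits lie to the right of the dashed line at each stage, IFT-B genes spread on both sides of 0, and Tulp3 alone lies past the line on the left.

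Promoter sequences were examined because many of the genes moved together between the fractions. RefSeq promoter windows (GRCm38.p6, 250 bases before to 50 after a transcription start) matched 41 of the 46 genes. The letters GTTGCC, which form an arm of the X-box bound by RFX factors, known regulators of ciliary genes, were found on either strand in windows of 18 of the 41 genes (43.9%) and of 14.1% of the 27025 genes in the table. They stood in 13 of the 27 genes higher in Cd73PC at P8, in 5 of the 13 within 1.5-fold, and not in the window of Tulp3, so that genes in both classes carry them. The inverted repeat of the X-box, GTTNCC followed after 2 bases by GGNAAC, was added after the data were seen. It contains GTTGCC where the N of GTTNCC is G or, on the other strand, where the N of GGNAAC is C. It was found in windows of 4 of the 41 genes (9.76%), all of them among the 18 above, and in 0.529% of all genes. These 4 windows are shown on the gene's own strand, with the match in capitals:
Bbs7: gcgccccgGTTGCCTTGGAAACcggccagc
Tctn1: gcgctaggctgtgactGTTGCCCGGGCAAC
Ahi1: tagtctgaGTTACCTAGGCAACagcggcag
Mks1: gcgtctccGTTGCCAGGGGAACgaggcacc
The Bbs7 window is chr3:36613489-36613518 on the minus strand, with the match 121 bases before the start. The Tctn1 window is chr5:122264411-122264440 on the minus strand, and the Ahi1 window is chr10:20952560-20952589 on the plus strand; their matches begin 37 and 22 bases into the transcript, counted from 1 at the start. The Mks1 window is chr11:87853183-87853212 on the plus strand, with the match 24 bases before the start. Bbs7 and Tctn1 were higher in Cd73PC at all 3 stages, Mks1 at P5 alone, and Ahi1 at none.

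The letters TAATCC, the core recognised by the photoreceptor homeodomain factors Crx and Otx2, were found on either strand in windows of 4 of the 41 genes (9.76%) and of 8.14% of all genes. The shares lie close to each other, and a gene with several starts, such as Mak or Unc119, had more windows in which to match, so nothing about the cilium genes is read from these matches. They are shown to give their position, with the match in capitals, which reads GGATTA where it lies on the opposite strand:
Rpgrip1: gctaaaaggcctGGATTAgtgtctcctcta
Mak: cccacaaaacagTAATCCcaccttgaacag
Unc119: tttgctgtttctGGATTAccaggccttgaa
Bbs1: tcagtctagtctTAATCCctaaaaagcgct
The Rpgrip1 window is chr14:52110863-52110892 on the plus strand, 28 bases before the only start in the table. The Mak window is chr13:41070666-41070695 on the minus strand, 218 bases before the second of 2 starts, and the Unc119 window is chr11:78345454-78345483 on the plus strand, 118 bases before the second of 3 starts. The Bbs1 window is chr19:4906807-4906836 on the minus strand, 197 bases before the start. The letters TGCTGA, part of the site of the rod factor Nrl, were found in 10 of the 41 genes (24.4%) and in 21.7% of all genes. A match of letters is not a binding site, and binding was not analysed here.

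The 7 BBSome subunits among the 46 genes differed between the fractions from the first stage on. All 7 were higher in Cd73PC at each of P2, P5, and P8, with median log2 ratios of 1.83, 1.54, and 1.57. Their median FPKM was 7.06 at E15 and 9.67 at E18, and 6.44, 10.4, and 11.7 in Cd73NC against 26.4, 29.2, and 38.7 in Cd73PC at P2, P5, and P8. Within any library the highest of the 7 had between 3.24 and 4.30 times the FPKM of the lowest. Bbip1, a further BBSome subunit outside the 46 genes, was within 1.5-fold between fractions at each stage, with log2 ratios of 0.39, 0.49, and 0.47. Bbs5 (chr2:69485312-69505626 on mm9), a subunit that binds phosphoinositides, had FPKM of 3.55 at E15 and 3.97 at E18, then 3.65, 5.30, and 4.76 in Cd73NC against 26.4, 29.2, and 38.7 in Cd73PC. It was the lowest of the 7 in whole retina and in Cd73NC, while the 3 Cd73PC values were several times those of every other library, with ratios of 5.89, 4.79, and 6.89-fold. Bbs9, a scaffold of the complex, had FPKM of 7.27 at E15 and 10.3 at E18, then 9.68, 18.1, and 14.3 in Cd73NC against 43.7, 63.6, and 74.4 in Cd73PC. Ttc8, a subunit built of tetratricopeptide repeats, had 8.72 at E15 and 13.9 at E18, then 13.7, 20.0, and 14.0 in Cd73NC against 51.1, 60.2, and 68.6 in Cd73PC. In both, each Cd73PC value lay above the 5 other libraries, and the log2 ratios between fractions were 2.07, 1.76, and 2.30 for Bbs9 and 1.83, 1.54, and 2.21 for Ttc8.

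Bbs4, another tetratricopeptide-repeat subunit, had FPKM of 11.5 at E15 and 14.5 at E18, then 11.8, 18.2, and 20.1 in Cd73NC against 48.1, 53.9, and 51.5 in Cd73PC. From P2 to P8 its log2 change was 0.10 in Cd73PC and 0.71 in Cd73NC, and the log2 ratio between fractions went from 1.93 to 1.52 and 1.32. Bbs1, the subunit through which the complex meets Arl6, had 7.06 at E15 and 9.67 at E18, then 6.44, 10.4, and 11.7 in Cd73NC against 16.0, 24.7, and 36.8 in Cd73PC. Bbs1 was higher at P8 than at P2 in both fractions, by 1.15 in Cd73PC and 0.77 in Cd73NC on the log2 scale, and showed the largest increase over these stages among the 46 genes in Cd73PC. Bbs7, a propeller-bearing core subunit, had FPKM of 4.38 at E15 and 4.62 at E18, then 6.30, 6.78, and 6.01 in Cd73NC against 15.3, 23.0, and 18.2 in Cd73PC. Bbs2, its partner in the core, had 5.67 at E15 and 7.02 at E18, then 6.02, 6.40, and 5.92 in Cd73NC against 12.4, 16.4, and 17.3 in Cd73PC. Bbs2 had the smallest mean difference of the 7, with ratios of 1.91, 2.35, and 2.64-fold.

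Bbs12 and Bbs10 encode chaperonin-like proteins that help the BBSome assemble. Bbs12 FPKM was 5.65 at E15 and 6.05 at E18, then 3.75, 4.10, and 2.60 in Cd73NC against 9.59, 10.4, and 12.2 in Cd73PC. Bbs10 FPKM was 3.55 at E15 and 3.40 at E18, then 3.54, 3.79, and 4.49 in Cd73NC against 3.33, 4.39, and 5.71 in Cd73PC. Bbs12 was thus higher in Cd73PC at each stage, with log2 ratios of 1.16, 1.16, and 1.88, and Bbs10 was within 1.5-fold between fractions at each stage, with -0.07, 0.17, and 0.29. In Cd73PC, Bbs10 was higher at P8 than at P2 by 0.63 on the log2 scale. Arl6, the small GTPase that recruits the BBSome to membranes, is encoded at chr16:59613147-59639165 (mm9) and had FPKM of 18.3 at E15 and 25.2 at E18, then 28.8, 28.9, and 24.3 in Cd73NC against 112, 128, and 154 in Cd73PC. Its 3 Cd73PC values were at least 112 and the other 5 values at most 28.9. The fold on FPKM + 1 was 3.78, 4.32, and 6.12 at P2, P5, and P8.

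**Figure D2:**
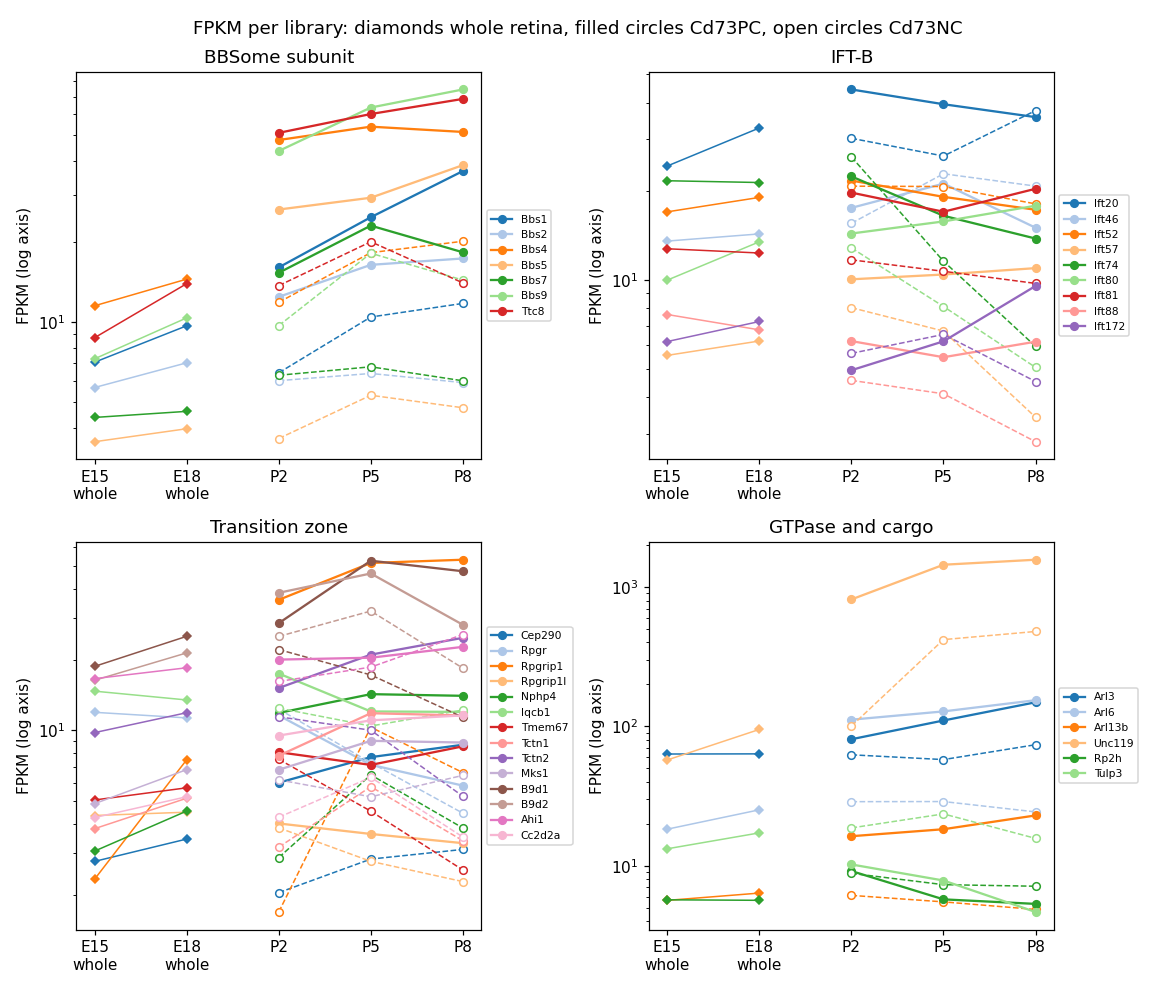
FPKM on a log axis in the 8 libraries for genes of 4 role groups: whole retina at E15 and E18 (diamonds), Cd73PC (filled circles, solid lines), and Cd73NC (open circles, dashed lines) at P2, P5, and P8; each point is 1 library. BBSome subunits in Cd73PC sit above Cd73NC at each stage, while several IFT-B and transition zone genes are close between fractions at P2 and part later as the Cd73NC line goes down.

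Most IFT genes were within 1.5-fold between the fractions at P2. Of genes with a mean FPKM of at least 1, 13.9%, 11.6%, and 12.4% were higher in Cd73PC by stage. Of the 9 IFT-B genes 1, 2, and 6 were, the count at P2 lying near that share, with median log2 ratios of 0.16, 0.48, and 0.93. Their median FPKM in Cd73PC was 17.6, 16.5, and 15.0 at P2, P5, and P8, and in Cd73NC 12.8, 10.7, and 5.95, against 12.8 at E15 and 13.5 at E18. Ift81, which with Ift74 binds tubulin, was the IFT-B gene higher at all 3 stages, with FPKM of 12.8 at E15 and 12.3 at E18, then 11.7, 10.7, and 9.73 in Cd73NC against 19.8, 17.0, and 20.4 in Cd73PC. Ift80, encoded at chr3:68696421-68808492 (mm9), had 9.98 at E15 and 13.5 at E18, then 12.8, 8.12, and 5.05 in Cd73NC against 14.4, 15.8, and 17.9 in Cd73PC. Ift80 in Cd73PC stayed within 1.5-fold over P2, P5, and P8, while in Cd73NC it was lower by more than 1.5-fold at each step, so that the log2 ratio went from 0.15 to 0.88 and 1.64.

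Ift74 and Ift57 were also lower in Cd73NC at P8 than at P2. Ift74 FPKM in Cd73NC was 26.1, 11.6, and 5.95 at P2, P5, and P8, and in Cd73PC 22.4, 16.5, and 13.8, so that it was lower at P8 than at P2 in both fractions, with log2 ratios of -1.97 and -0.66. Ift57 FPKM was 8.05, 6.70, and 3.42 in Cd73NC and 10.05, 10.4, and 11.0 in Cd73PC. Ift172, the longest IFT-B protein, and Ift88, needed for cilium formation, were higher in Cd73PC at P8 by log2 ratios of 0.93 and 0.91. Ift172 was the one of these whose Cd73PC level was higher at P8 (9.53) than at P2 (4.94) by more than 1.5-fold. Ift46 had the lowest mean ratio of the IFT-B genes, with FPKM of 13.5 at E15 and 14.3 at E18, then 15.6, 22.9, and 20.8 in Cd73NC against 17.6, 21.2, and 15.0 in Cd73PC. Ift20 and Ift52 were also within 1.5-fold between fractions at each stage, with log2 ratios between -0.11 and 0.57.

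The 2 IFT-A genes among the 46, whose complex carries trains back and helps membrane proteins enter, went apart. Ift122 FPKM was 11.7 at E15 and 13.3 at E18, then 10.3, 14.2, and 8.19 in Cd73NC against 18.1, 30.01, and 33.6 in Cd73PC. Ift140 FPKM was 10.3 at E15 and 11.0 at E18, then 8.61, 7.89, and 7.98 in Cd73NC against 6.73, 6.70, and 6.37 in Cd73PC. Ift122 was higher in Cd73PC at each stage, by 1.69, 2.04, and 3.77-fold at P2, P5, and P8, and Ift140 was within 1.5-fold, with log2 ratios of -0.31, -0.21, and -0.29. Outside the 46, the IFT-A gene Wdr35 was higher in Cd73PC at each stage, with log2 ratios of 0.60, 0.71, and 1.76. The IFT-A gene Wdr19 was higher at P2 and P8 (0.67, 0.58, and 0.89) and Ttc21b at none (0.27, 0.05, and 0.19). Among the kinesin-2 motor genes, Kif3b had FPKM of 10.6 at E15 and 11.7 at E18, then 8.18, 9.14, and 9.73 in Cd73NC against 13.0, 16.7, and 23.2 in Cd73PC. Its partner Kif3a had 23.1 at E15 and 23.0 at E18, then 20.6, 11.9, and 12.9 in Cd73NC against 17.7, 11.0, and 11.7 in Cd73PC. Kif3b was higher in Cd73PC at each stage, with log2 ratios of 0.61, 0.81, and 1.17, and Kif3a was within 1.5-fold, with -0.20, -0.10, and -0.13, although both proteins sit in the same motor. Kif17, a separate kinesin-2 motor, had at most 0.449 FPKM in any library, too little for a difference to be read.

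The 14 transition zone genes had median log2 ratios of 0.42, 0.70, and 1.33 at P2, P5, and P8, with 6, 8, and 9 called higher in Cd73PC and 0 lower. Among genes with a mean FPKM of at least 1, 13.9%, 11.6%, and 12.4% were called higher and 24.2%, 26.3%, and 29.8% lower. Rpgrip1 (chr14:52730578-52781014 on mm9), which holds Rpgr at the connecting cilium, had the largest single difference of the 46 genes, with FPKM of 2.33 at E15 and 7.51 at E18, then 1.69, 10.3, and 6.62 in Cd73NC against 35.9, 51.5, and 53.1 in Cd73PC. The Cd73PC values were 13.7, 4.64, and 7.11 times those of Cd73NC on FPKM + 1, and E18 stood above E15 and above Cd73NC at P2. Of its exonic bases 16.9% are shared with Supt16h on the opposite strand, and the library does not keep strand; Supt16h FPKM was 52.6 in Cd73NC and 34.9 in Cd73PC at P2, the opposite direction. Rpgr itself, the lowest of the 14 by mean ratio, had FPKM of 11.9 at E15 and 11.3 at E18, then 12.3, 7.29, and 4.45 in Cd73NC against 11.6, 7.14, and 5.83 in Cd73PC. Its log2 ratios between fractions were -0.08, -0.03, and 0.33, and it was lower at P8 than at P2 in both fractions.

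Nphp4, a gene of the nephrocystin module, had FPKM of 3.07 at E15 and 4.54 at E18, then 2.88, 6.47, and 3.85 in Cd73NC against 11.9, 14.3, and 14.0 in Cd73PC. Cep290, which links microtubules to the membrane at the gate, had 2.77 at E15 and 3.45 at E18, then 2.04, 2.84, and 3.12 in Cd73NC against 6.00, 7.70, and 8.69 in Cd73PC. The Cep290 ratio varied little over the stages, with log2 values of 1.20, 1.18, and 1.23, and Nphp4 had 1.73, 1.03, and 1.63. Cep290 shares 9.69% of its exonic bases with 4930430F08Rik on the opposite strand, and reads there cannot be told apart. The FPKM of 4930430F08Rik was 7.04, 6.44, and 6.09 in Cd73NC, above that of Cep290, and 8.32, 5.39, and 6.00 in Cd73PC. Tctn1, a tectonic protein of the gate's membrane complex, had FPKM of 3.82 at E15 and 5.15 at E18, then 3.19, 5.76, and 3.40 in Cd73NC against 7.81, 11.8, and 11.6 in Cd73PC. Cc2d2a, of the same complex, had 4.26 at E15 and 5.22 at E18, then 4.27, 6.31, and 3.52 in Cd73NC against 9.51, 11.0, and 11.6 in Cd73PC. In both genes the P8 Cd73PC value was above the P2 and Cd73NC was highest at P5, and the log2 ratio was lowest at P5. Tctn1 shares 20.4% of its exonic bases with Hvcn1 on the opposite strand, whose FPKM at P8 was 3.36 in Cd73NC and 7.75 in Cd73PC, and reads in the shared bases cannot be told apart.

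Tctn2 and B9d1, also of the membrane complex, parted between the fractions with age. Tctn2 (chr5:125048758-125077658 on mm9) had FPKM of 9.79 at E15 and 11.9 at E18, then 11.4, 10.02, and 5.25 in Cd73NC against 15.1, 21.0, and 24.7 in Cd73PC. B9d1 (chr11:61318674-61326429 on mm9) had 18.7 at E15 and 25.1 at E18, then 22.1, 17.2, and 11.4 in Cd73NC against 28.6, 52.6, and 47.5 in Cd73PC. Both had about the whole retina level in each fraction at P2, and by P8 Cd73PC was higher and Cd73NC lower, so that the log2 ratios went from 0.38 to 2.04 in Tctn2 and from 0.36 to 1.97 in B9d1. Tmem67, a receptor-like membrane protein of the gate, had 7.54, 4.54, and 2.55 FPKM in Cd73NC at P2, P5, and P8 and 8.08, 7.13, and 8.55 in Cd73PC. B9d2, which binds B9d1, had log2 ratios of 0.60, 0.52, and 0.59. Mks1, Rpgrip1l, Iqcb1, and Ahi1 had log2 ratios between -0.17 and 0.69 over the 3 stages.

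Lca5 encodes lebercilin, which binds IFT trains at the connecting cilium, and Sdccag8 a basal body protein. Lca5 FPKM was 8.95 at E15 and 8.44 at E18, then 7.22, 6.70, and 5.64 in Cd73NC against 13.2, 17.4, and 22.6 in Cd73PC. Sdccag8 FPKM was 5.53 at E15 and 6.97 at E18, then 6.83, 4.57, and 4.56 in Cd73NC against 6.76, 5.84, and 4.65 in Cd73PC. Lca5 was higher in Cd73PC at each stage, its Cd73PC value was higher at P8 than at P2 by 0.73 on the log2 scale, and its log2 ratios between fractions were 0.79, 1.26, and 1.83, whereas those of Sdccag8 stayed within 1.5-fold, at -0.01, 0.30, and 0.02.

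Among small GTPases and cargo carriers, Unc119 had the highest FPKM of the 46 genes in each library but E15. Unc119 (chr11:78157024-78162658 on mm9) binds lipid-modified proteins such as the rod transducin alpha subunit and had FPKM of 57.4 at E15 and 95.1 at E18, then 101, 419, and 479.7 in Cd73NC against 815, 1446, and 1570.3 in Cd73PC. The level in Cd73PC at P2 was 51.9% of that at P8, and Cd73NC at P5 and P8 also stood above whole retina. Arl3, the GTPase that makes Unc119 let go of its cargo, had FPKM of 63.3 at E15 and 63.5 at E18, then 62.5, 57.7, and 73.8 in Cd73NC against 80.8, 110.2, and 149 in Cd73PC. Arl13b, which activates Arl3, had 5.64 at E15 and 6.36 at E18, then 6.12, 5.50, and 4.85 in Cd73NC against 16.3, 18.3, and 22.9 in Cd73PC. Rp2h, which turns Arl3 off, had FPKM of 9.15, 5.73, and 5.32 in Cd73PC and 8.81, 7.31, and 7.12 in Cd73NC at P2, P5, and P8. Unc119, Arl13b, and, from P5, Arl3 were thus higher in Cd73PC, and Rp2h was within 1.5-fold between fractions with log2 ratios of 0.05, -0.30, and -0.36.

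Tulp3 (chr6:128271179-128305869 on mm9), which brings receptors into cilia together with IFT-A, was the only one of the 46 genes called lower in Cd73PC at any stage. Its FPKM was 13.2 at E15 and 17.2 at E18, then 18.7, 23.5, and 15.7 in Cd73NC against 10.2, 7.82, and 4.65 in Cd73PC. The Cd73PC values were below whole retina and lower at each later stage, and Cd73NC held 183%, 301%, and 337% of the Cd73PC FPKM at P2, P5, and P8. Mak, a kinase that limits ciliary length in photoreceptors, lies at chr13:41120489-41175075 (mm9) and had FPKM of 2.50 at E15 and 5.74 at E18, then 4.65, 18.2, and 9.16 in Cd73NC against 63.7, 60.4, and 66.7 in Cd73PC. Cd73PC was above the other libraries at each stage, with log2 ratios of 3.52, 1.67, and 2.74, and the Cd73NC level was highest at P5.

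Rpgrip1, Mak, Nphp4, and Unc119 were among the 7 cilium genes that were higher in Cd73NC at P5 than at P2, by log2 ratios of 2.07, 1.77, 0.95, and 2.05. The others were Tctn1, Bbs9, and Bbs1. From P5 to P8, Mak, Nphp4, and Tctn1 were then lower in Cd73NC, at -0.92, -0.62, and -0.62. The other 4 stayed within 1.5-fold, with log2 ratios of -0.57 in Rpgrip1, -0.31 in Bbs9, 0.16 in Bbs1, and 0.19 in Unc119. The summed FPKM of the 8 rod markers in Cd73NC was 79.1, 1016, and 760.1 by stage, and 4 of the 8 had a lower value at P8 than at P5 (Nrl, Nr2e3, Rom1, and, by little, Pde6b) while 4 had a higher one (Gnat1, Pde6a, Sag, and Cnga1). Their part in the Cd73NC values of the cilium genes was not tested. As a share of Cd73PC, Cd73NC held 4.71% to 20.0% for Rpgrip1 and 12.3% to 18.2% for Bbs5, where the median rod marker was at 1.08%, 8.77%, and 6.94% at P2, P5, and P8.

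Before birth few of the genes differed in level. Between E15 and E18, 4 of 46 were higher at E18 and 0 lower, against 4.61% of all genes (7.27% of those with a mean FPKM of at least 1) higher and 2.09% (3.05%) lower. The 4 were Rpgrip1, Mak, Unc119, and Ttc8, with log2 ratios of 1.35, 0.94, 0.72, and 0.62. From E18 whole retina to Cd73PC at P2, 21 were higher and 2, Tulp3 and Ift140, lower, against 8.78% (14.6%) and 18.3% (28.7%) of genes. All 7 BBSome genes, 5 of 14 transition zone genes, 2 of 9 IFT-B genes, and 0 of 3 kinesin-2 genes were among the 21. From the same E18 library to Cd73NC at P2, 0 were higher and 1 lower, Rpgrip1 at a log2 ratio of -1.66, against 3.20% (5.38%) and 8.20% (12.0%) of genes, and the counts were 2 and 1 after quantile normalization, 1 and 6 with a pseudocount of 0.1, and 1 and 7 with none. Both of these comparisons share the E18 library.

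Within Cd73PC most of the cilium genes differed little between P2 and P8. From P2 to P8, 11 were higher and 4 lower, against 6.40% (10.4%) and 14.7% (25.0%) of genes, and 31 stayed within 1.5-fold. With the median of genes with a mean FPKM of at least 1 set to 0 (it was -0.20 as deposited), the counts were 19 and 2. The 11 were Bbs1, Unc119, Arl3, Ift122, Ift172, Kif3b, Bbs9, Lca5, B9d1, Tctn2, and Bbs10, with log2 ratios from 0.63 to 1.15. The 4 lower were Tulp3, Rpgr, Rp2h, and Ift74, from -0.99 to -0.66. Between P2 and P5, 4 were higher and 3 lower (3.36% and 8.57% of all genes, 5.38% and 14.6% of those with a mean FPKM of at least 1), or 10 and 0 after that centring, and between P5 and P8, 0 were higher and 2, B9d2 and Tulp3, lower (3.31% and 4.78%, or 5.27% and 8.09%), and 2 and 1 centred. These steps share libraries with each other and with the fraction comparisons.

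In Cd73NC the genes went both ways. From P2 to P8, 6 (13.0%) were higher: Unc119, Rpgrip1, Mak, Bbs1, Bbs4, and Ahi1. The 8 (17.4%) lower were Ift74, Rpgr, Tmem67, Ift80, Ift57, Tctn2, B9d1, and Kif3a. Of genes, 13.5% (20.0%) were higher and 14.3% (24.0%) lower. The cilium gene shares lay near those of all genes and below those of genes with a mean FPKM of at least 1. Nothing particular to the cilium genes is read from these 2 counts. Between P2 and P5, 7 were higher and 5 lower (7.93% and 9.51% of all genes, or 12.8% and 15.8%), and the counts were 8 and 3 with the median centred. Between P5 and P8, 0 were higher and 12 lower (8.47% and 7.78%, or 12.6% and 13.4%), of which 7 were transition zone genes and 3 IFT-B genes. The summed FPKM of the 10 progenitor and cell cycle markers in Cd73NC was 2205, 484, and 114 at P2, P5, and P8, and that of the 10 bipolar markers 19.5, 115, and 1579; the part of this change in makeup was not tested. Of the 46 genes, 23 were within 1.5-fold from P2 to P8 in both fractions.

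**Figure D3:**
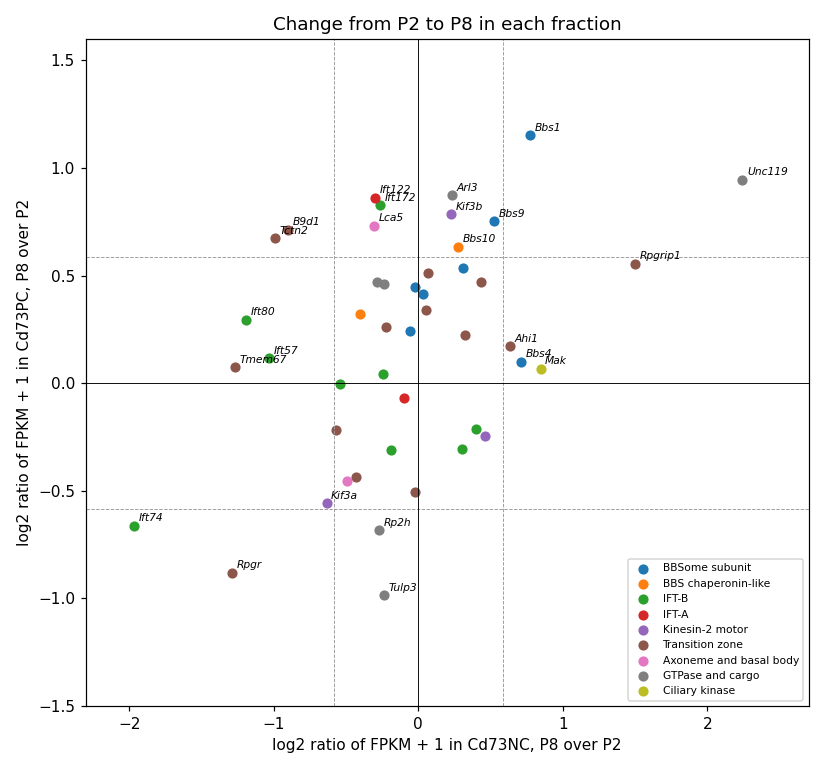
Log2 ratio of FPKM + 1 at P8 over P2 in Cd73NC (horizontal axis) and in Cd73PC (vertical axis) for the 46 genes, coloured by role; dashed lines mark 1.5-fold and genes past a line in either fraction are named. Tctn2 and B9d1 lie past the line upward in Cd73PC and downward in Cd73NC, Unc119 and Bbs1 upward in both, and Ift74 and Rpgr downward in both.

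Other genes of the cilium were taken from lists written for this work. Of 89 found in the tables, 28 (31.5%) were higher and 10 (11.2%) lower in Cd73PC at P2, where 13.9% and 24.2% of genes with a mean FPKM of at least 1 were. The counts at P5 were 35 (39.3%) and 14 (15.7%), against 11.6% and 26.3%, and those at P8 40 (44.9%) and 12 (13.5%), against 12.4% and 29.8%. Of the 89, 25 (28.1%) were higher at all 3 stages, where 3.50% of all genes and 5.97% of those with a mean FPKM of at least 1 were. Among 18 other IFT and dynein-2 genes 7, 9, and 11 were higher at P2, P5, and P8, with a median log2 ratio of 0.96 at P8. The dynein-2 subunits Wdr60, Wdr34, and Dync2li1 were among them, with log2 ratios at P8 of 1.98, 1.57, and 2.06, and Dync2li1 FPKM at P8 was 9.80 in Cd73NC and 44.0 in Cd73PC. Kif7, a kinesin that acts at the ciliary tip in Hedgehog signalling, was lower at P5 and P8, at -0.76 and -0.69. Among 14 other BBSome and transition zone genes 3, 7, and 10 were higher and 1, 2, and 0 lower, and Tmem107 also parted between the fractions, with 25.0, 8.19, and 4.20 FPKM in Cd73NC and 26.4, 31.9, and 35.7 in Cd73PC at P2, P5, and P8.

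The 10 genes of the photoreceptor axoneme and cilium had the highest median of these lists, with 8 higher in Cd73PC at each stage. This list was written from photoreceptor genes, so nothing about cilium genes in general is read from its rank. Its genes also add to the count of other cilium genes higher at all 3 stages. Of the other 2, Nek2, a centrosomal kinase, was lower at P2 and P5 (-1.37 and -1.61), and Topors was within 1.5-fold at each stage. Rp1, a microtubule protein of the photoreceptor axoneme, had 21.5 FPKM in Cd73NC and 472 in Cd73PC at P8, and Cngb1, the rod channel subunit of the outer segment membrane, 26.2 and 436. Their log2 ratios at P8, 4.39 and 4.01, were above those of each of the 46 cilium genes, of which Rpgrip1 was highest at 2.83. The rest of the 10 largest mean ratios among the other cilium genes belonged to BC027072, Tulp1, Rp1l1, Prom1, Cdhr1, Tub, and Fam161a, with log2 ratios at P8 from 2.38 to 3.78, and to Wdr60. Of 13 other ciliary cargo and small GTPase genes 4, 5, and 4 (30.8%, 38.5%, and 30.8%) were higher by stage and 0, 0, and 2 (15.4% at P8) lower. Of genes with a mean FPKM of at least 1, 13.9%, 11.6%, and 12.4% were higher by stage and 24.2%, 26.3%, and 29.8% lower. Pde6d, a carrier of prenylated cargo that Arl3 also releases, was higher at each stage with log2 ratios of 1.16, 1.08, and 1.13. Of 12 centriole and ciliogenesis genes 2 (16.7%) were higher at each stage and 3, 2, and 2 (25.0%, 16.7%, and 16.7%) lower, shares that at P2 lay close to the 13.9% and 24.2% of genes with a mean FPKM of at least 1. Fbf1 was the one of them lower at all 3 stages, with log2 ratios from -0.88 to -0.64. Of 16 motile cilium genes, which include 8 with a mean FPKM of at least 1, 3 (18.75%) were higher at each stage and 4, 5, and 5 (25.0%, 31.25%, and 31.25%) lower. Their lower shares lay close to those of genes with a mean FPKM of at least 1, and above the 14.4%, 15.6%, and 18.6% of all genes. Tekt1, Foxj1, and Ccdc40 were lower at all 3 stages, Foxj1, the master factor of motile cilia, at -0.97, -0.91, and -1.11 and Tekt1, a filament protein of the axoneme, at -1.15, -1.60, and -1.11. Rsph9 and Dnaic2 were higher at all 3 stages, at 0.92, 1.31, and 2.41 and at 0.90, 1.39, and 2.09. The 6 RFX factor genes went both ways, with 1, 1, and 2 (16.7%, 16.7%, and 33.3%) higher and 1, 3, and 2 (16.7%, 50%, and 33.3%) lower. Rfx1 was higher at all 3 stages, with log2 ratios of 0.67, 0.68, and 1.13, while Rfx5 was at -0.73 and -1.44 and Rfx7 at -0.69 and -0.94 at P5 and P8, Rfx2 was lower at P2 (-0.76) and higher at P8 (0.80), and Rfx3 was lower at P5 (-0.62).

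**Figure D4:**
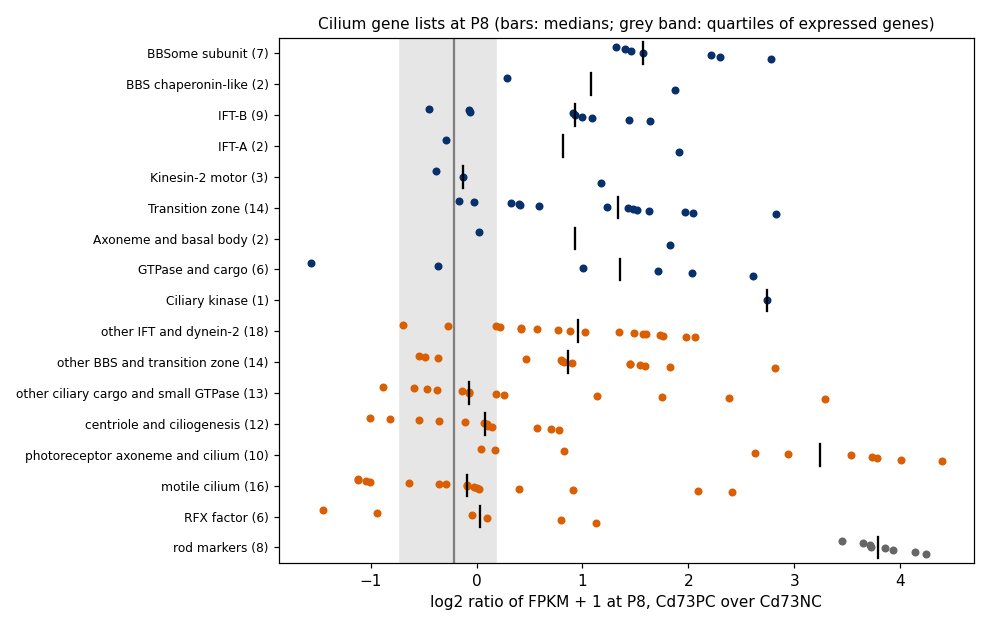
Log2 ratio of FPKM + 1 at P8 in Cd73PC over Cd73NC (horizontal axis) for the 46 genes by role (blue), other cilium lists (orange), and rod markers (grey), with the number of genes in brackets and the list median as a bar; the grey line and band are the median and quartiles of genes with a mean FPKM of at least 1. The BBSome median (1.57) and IFT-B median (0.93) lie between the band and the rod markers, and the photoreceptor axoneme list has the highest median of the cilium lists (3.24), with 3 of its 10 genes below 1.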

How the data were processed

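RNA of 8 libraries of mouse retina, 1 per condition, was sequenced as single-end poly(A)-selected reads without strand. Per the submitters' processing notes, CASAVA 1.8.2, bcl2fastq 1.8.4, TopHat2 2.0.8b, and Cufflinks 2.1.1 were used with mm9, and the authors deposited for each library the FPKM of 23021 rows with confidence bounds and a status. FPKM is divided by transcript length and mapped fragments, so read counts, absolute depth, and counting intervals are not given here.

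Groups followed the sample titles. Failed rows (4 to 10 per library, none in a cilium gene) were taken as missing, 796 small RNA rows were left out, and rows sharing a symbol were summed, leaving 21828 genes, 20 of them with a missing value and 12359 with a mean FPKM of at least 1. Log2 ratios used a pseudocount of 1, and a 1.5-fold difference was called, with no test. Genes given in full were those past 1.5-fold in 1 direction at all 3 stages, the highest and lowest of each role by mean ratio, and the 5 with the widest range; the cilium genes, roles, and marker lists were chosen with earlier results of these data known, and 1 listed marker is not reported here. Of the other cilium genes, those named were the genes called in 1 direction at all 3 stages, up to 10 by mean ratio in each direction. Tmem107, Dync2li1, Wdr34, Wdr35, Wdr19, Ttc21b, Kif7, Pde6d, Nek2, Topors, Bbip1, Rsph9, Dnaic2, and the RFX factors were also named, picked after their values were seen. All 46 loci overlapped the gene of the same name in an NCBIM37 annotation, and 11 share exonic bases with another gene. Promoter windows came from RefSeq on GRCm38.p6, and no coordinate was moved between builds. Alternatives were other pseudocounts, scalings, folds, and filters. Scripts were tested on simulated data and used Python 3.11.15, numpy 2.4.6, pandas 2.3.3, and matplotlib 3.10.9.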

Additional observations from a re-analysis of the deposited data

Results flagged for a closer look

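Tctn2 and B9d1 were the 2 cilium genes that moved past 1.5-fold in opposite directions in the fractions between P2 and P8. The log2 change of Tctn2 was 0.67 in Cd73PC and -0.99 in Cd73NC, and that of B9d1 was 0.71 in Cd73PC and -0.90 in Cd73NC. With 1 library per fraction and stage this difference was not tested. Groups of 1 library allowed no check for a library far from the others.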

How the results depend on the processing

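No paired analysis was possible because each condition has 1 library, and for the same reason no replicate could be left out. Among the genes given in full, no called difference between the fractions changed direction under any of the alternatives run. The other calls were compared by their counts only. The counts of cilium genes higher in Cd73PC were within 1.5 times the reported ones under each alternative, and their medians moved by less than 1.5-fold. Among the single genes given in full, 1 value moved by more than 1.5-fold and 956 did not. Counts that moved are given as higher/lower, with a single number for a count that moved alone. With a pseudocount of 0.1, Cd73NC-higher genes were 2 at P5 and 2 at P8, P2 Cd73NC against E18 gave 1/6, and the P5 to P8 step gave 1 higher in Cd73PC and 1 in Cd73NC. With none, these were 2, 2, 1/7, 2, and 1. Upper quartile scaling gave 1 lower for P2 Cd73PC against E18, 2 lower for P2 Cd73NC against E18, 8/0 for P2 to P5 in Cd73PC, 2 higher for P5 to P8 in Cd73PC, and 3 lower for P2 to P5 in Cd73NC. Quantile normalization gave 0 lower, 2 higher, and 0 lower for the first 3 of these, and in Cd73PC 1 lower from P5 to P8 and 2 lower from P2 to P8. Setting the median of genes with a mean FPKM of at least 1 to 0 gave 0 lower for P2 Cd73PC against E18, 10/0, 2/1, and 19/2 for P2 to P5, P5 to P8, and P2 to P8 in Cd73PC, and 3 lower for P2 to P5 in Cd73NC. A 2-fold threshold, stricter by construction, gave 0 lower in Cd73PC at P2, 1 higher at E18 than at E15, 11/0 for P2 Cd73PC against E18, 0/0, 0 lower, and 1/0 for the same 3 steps in Cd73PC, and 3/1, 0 lower, and 2/5 in Cd73NC. For the scalings the cause was not tested. The absolute depth is unknown, and no difference was read for Kif17, which had at most 0.449 FPKM.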
